A study of Mus musculus with 12 samples.

Results

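Neurexins and neuroligins are cell adhesion molecules that meet across the synaptic cleft, and the 5 genes described here encode 2 neurexins (Nrxn2, Nrxn3) and 3 neuroligins (Nlgn1, Nlgn2, Nlgn3). Described are their m1A immunoprecipitation peaks, taken as those whose summit, the base of highest coverage, lay in the RefSeq GRCm38 span of one of these genes. There were 77 such peaks among 23413 in the 6 deposited peak lists. The tissue was the caudate putamen of adult male mice homozygous for a floxed Tet1 allele (Tet1 fl/fl). The KO mice (Tet1 delta/delta) had AAV-Cre-EGFP injected into that region and the control mice (Tet1 fl/fl) had AAV-EGFP, and tissue was taken 2 weeks later. Both groups carried the floxed allele and a virus, the deletion was limited to cells that the Cre virus reached, and uninfected cells kept the floxed gene. Each group gave 3 pull-down libraries and 3 inputs, 12 samples in all, and the labels do not say whether the numbered libraries came from separate animals, so p-values reflect only how much these libraries vary, and that variation may be technical.

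Neurexins sit mainly on the presynaptic membrane and bind neuroligins, leucine-rich repeat proteins, cerebellins and latrophilins on the other side of the cleft. Neuroligins bind scaffold proteins of the postsynapse, with Nlgn1 found chiefly at excitatory synapses, Nlgn2 at inhibitory ones and Nlgn3 at both. The striatum is built mostly of GABA-releasing projection neurons that receive excitatory input from cortex and thalamus. m1A is a methyl group on the base-pairing face of adenosine, abundant in transfer and ribosomal RNA and also reported near the starts of messenger RNAs. TET1 is a dioxygenase that oxidises 5-methylcytosine.

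Sites near annotated starts were found in 3 of the 5 genes. The RefSeq start windows (GRCm38.p6, 250 bases before to 50 after a start) matched 3 of the 5 genes with 6 windows, namely 3 for Nrxn3, 2 for Nlgn1 and 1 for Nlgn2, and had no entry for Nrxn2 and Nlgn3. Each of the 3 genes had a summit within 500 bp of a start, as did 41.1% of the 5090 genes with a peak and a window. The windows of the starts with such a summit are printed, since the Nlgn2 site, called in control libraries alone, and the Nrxn3 site reach into theirs. They run 5′ to 3′ on the gene's strand, with the 50 bases after the start in capitals.
Nlgn2, chr11:69837735-69838034, minus strand: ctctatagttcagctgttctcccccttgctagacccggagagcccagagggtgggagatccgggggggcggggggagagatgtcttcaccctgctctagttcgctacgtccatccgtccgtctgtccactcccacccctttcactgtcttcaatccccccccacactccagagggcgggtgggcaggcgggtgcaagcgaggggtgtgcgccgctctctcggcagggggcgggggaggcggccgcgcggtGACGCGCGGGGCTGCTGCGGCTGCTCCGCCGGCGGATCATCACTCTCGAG
Nlgn1, chr3:26331860-26332159, minus strand: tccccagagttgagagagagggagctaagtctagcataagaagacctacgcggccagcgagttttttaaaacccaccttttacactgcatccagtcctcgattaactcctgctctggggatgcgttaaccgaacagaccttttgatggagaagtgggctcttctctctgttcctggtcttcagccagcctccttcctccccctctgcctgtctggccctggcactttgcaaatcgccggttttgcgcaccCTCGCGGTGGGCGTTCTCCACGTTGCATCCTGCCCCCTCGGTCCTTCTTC
Nrxn3, chr12:88794254-88794553, plus strand: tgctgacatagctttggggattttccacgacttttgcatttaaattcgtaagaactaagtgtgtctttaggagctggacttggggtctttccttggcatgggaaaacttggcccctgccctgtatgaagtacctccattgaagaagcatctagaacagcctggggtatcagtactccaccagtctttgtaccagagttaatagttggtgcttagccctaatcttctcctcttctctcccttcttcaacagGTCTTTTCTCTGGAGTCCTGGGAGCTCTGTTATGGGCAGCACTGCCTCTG

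The 3 windows differ in base composition. The Nlgn2 window is 68.7% G and C with 26 CG pairs, and 11.5% of all 32851 windows have at least that G and C share. The Nlgn1 window is 55.7% G and C with 14 CG pairs and the Nrxn3 window 47.3% with 2, beside medians of 52.7% and 7 over all windows. The GC box GGGCGG, searched on both strands with overlaps counted, occurs 3 times in the Nlgn2 window and 0 times in the other 2, and 35.7% of all windows hold it. The TATA box TATAAA occurs in none of the 3 and in 13.6% of all windows. The last 16 bases of the Nlgn2 window and the last 3 of the Nrxn3 window lie inside the m1A sites.

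Peak calling drew on 1235247, 2508102 and 1336328 tags in the pull-downs of KO 1, 2 and 3, against 459332, 1097292 and 864206 in control 1, 2 and 3, so that each KO pull-down was deeper than each control. The lists held 3057 to 6947 peaks in KO and 3004 to 3444 in control. KO 2 was the longest, with 4468 regions of its own, and 13.4% of its peaks lay in genes over 500 kb. That share was 11.2% in control 1, in which alone the caller kept all duplicate tags, and 5.05% to 5.53% in the other 4 libraries. Of 13 markers of medium spiny neurons, the striatal projection neurons, 10 had a peak in some list and Ppp1r1b, Pde10a and Adcy5 had one in all 6, while Drd1, Pdyn and Tac1 had none. Among other cell types, 3 of 4 cortical excitatory, 3 of 5 astrocyte, 4 of 5 oligodendrocyte and 2 of 4 microglia markers had a peak. By library these other markers counted 7, 10 and 6 in KO and 2, 8 and 9 in control, and their part in the results below was not tested. A peak list holds no reads outside its peaks, so an absent site means only that no peak was called there, and a lower transcript level, fewer cells of a type and less RNA per cell cannot be told apart from less m1A.

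Peaks of the 5 genes were more numerous in KO libraries only through KO 2. They numbered 9, 36 and 7 in KO 1, 2 and 3, and 6, 9 and 10 in control 1, 2 and 3, or 17.3 ± 16.2 in KO and 8.33 ± 2.08 in control (SD, n = 3 each). KO 1 and KO 3 lay inside the control range and KO 2 stood far above all others. As a share of each list the 5 genes held 0.238%, 0.518% and 0.229% of peaks in KO, and 0.189%, 0.261% and 0.333% in control. The groups overlapped on both measures. Nrxn2, Nrxn3 and Nlgn1 had a peak in all 6 lists, as did 8.11% of the 6658 genes with any peak. Without KO 2 the mean number was 8 in KO and 8.33 in control, and per 1000000 tags used it was 8.96 in KO and 10.9 in control.

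**Figure D1:**
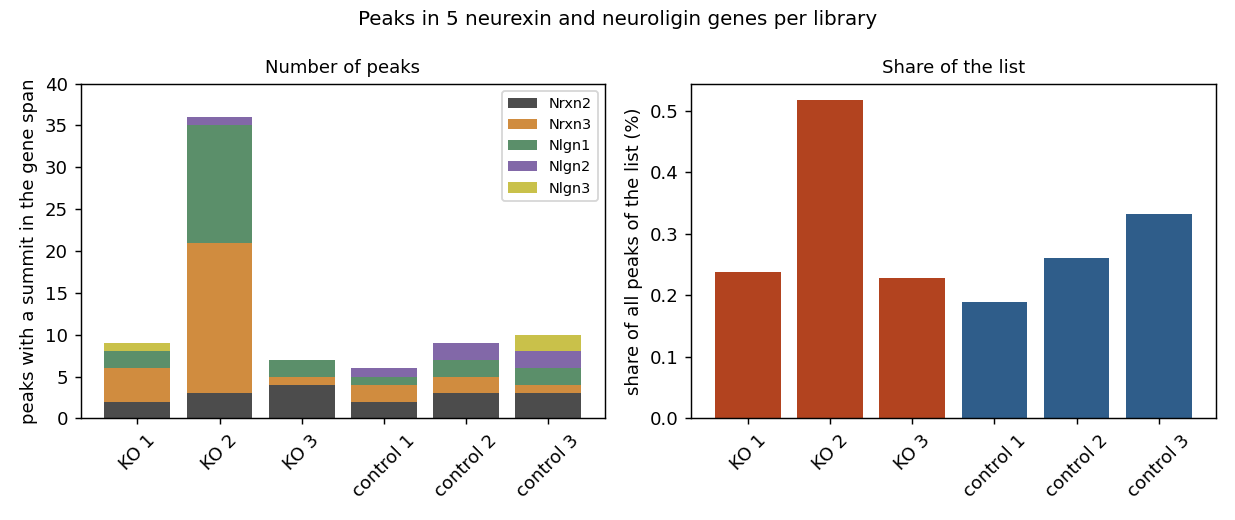
Peaks with a summit in each of the 5 genes per library (left, stacked by gene) and their share of all peaks of the list in percent (right), KO libraries left of control libraries. KO 2 holds 36 peaks, most of them in Nrxn3 and Nlgn1, and the other 5 libraries hold 6 to 10.

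Merging peaks that shared at least 1 bp gave 54 sites. Of these, 42 (77.8%) were called in a single list, where 69.0% of all 13572 merged regions were, and 29 (53.7%) were called in KO 2 alone, where 32.9% of all regions were. The long genes Nrxn3, of 1612 kb, and Nlgn1, of 911.1 kb, held 27 of those 29. The remaining 12 sites, called in 2 to 6 lists, are the ones that can be set against each other between libraries. A single site was called in all 6 lists (2.96% of all regions were), 2 sites were called in all 3 control and no KO list (0.796% of all regions), and 0 in all 3 KO and no control list (1.41% of all regions). Both of the sites called in exactly 3 lists were thus control sites, while of all 974 regions called in exactly 3 lists 11.1% were those of the 3 controls and 19.7% those of the 3 KO libraries.

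**Figure D2:**
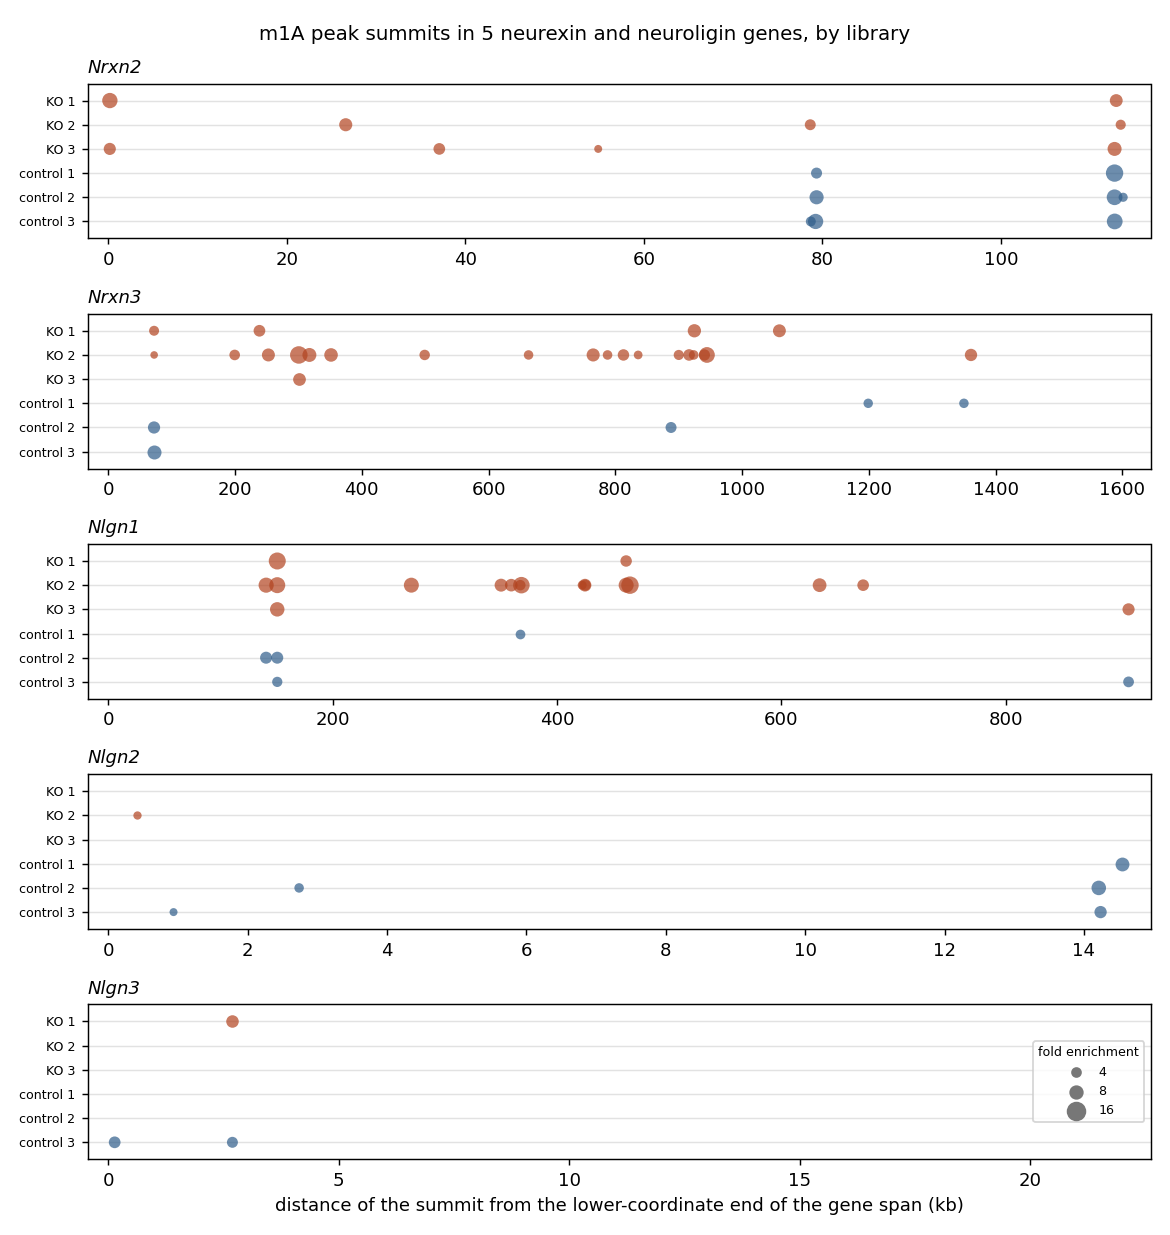
Summits of the 77 peaks along each gene span, as distance from the lower-coordinate end in kb, with 1 row per library (KO in red above control in blue) and point size for the authors' fold enrichment. Nrxn3 and Nlgn1 carry long runs of summits in the KO 2 row alone, whereas in Nrxn2 the summits of several libraries coincide near both ends and at about 79.3 kb, and in Nlgn2 those of the 3 controls lie near the upper end.

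Each peak has a fold enrichment, the authors' ratio of pull-down over local background at the summit, and a pileup, the tag coverage there. Both are the authors' values for single peaks and were used only to describe peaks, since lists differ in depth and in duplicate handling. Across the lists the median fold enrichment of all peaks was 4.65 in control 1 and 7.16 to 7.53 in the other 5 libraries.

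Nrxn2, on chromosome 19 from 6418756 to 6533217, carried 17 peaks at 8 sites and had a peak in all 6 lists. Its most widely called site, chr19:6531356-6532252, lay at the upper end of the span, with a median summit 1726 bp from that end. Fold enrichment there was 8.45, 5.24 and 10.1 in KO 1, 2 and 3, and 15.4, 12.6 and 12.7 in control 1, 2 and 3. Every control value lay above every KO value, with or without KO 2. By the highest peak of each gene, 10.4% of the 540 genes called in all 6 lists had every KO below every control, Nrxn2 among them. In KO 1 and KO 2 the highest Nrxn2 peak lay at other sites, with fold enrichments of 12.0 and 8.78. No share of regions called in all 6 lists with this order is given. The pileup at the upper-end site was 16, 26 and 29 in KO and 29, 57 and 46 in control, so that KO 3 and control 1 were level. Within its own list the site stood at the 69.0th, 17.2th and 77.7th percentile of fold enrichment in KO, and at the 96.3th, 89.3th and 90.0th in control. These values belong to single peaks and were not tested between the groups.

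The KO 2 peak was not in the same place as the others. Its summit lay 686 bp from those of KO 3 and control 2, and it joined the site only by sharing 14 bp with the control 2 peak and 7 bp with that of control 3. Those 2 peaks were 674 and 660 bp long, against 382, 237 and 190 bp in KO 1, 2 and 3 and 253 bp in control 1. When peaks had to share 50% of the shorter one, the site was called in 5 lists. The summits of KO 3 and of the 3 controls lay within 16 bp of each other.

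A further Nrxn2 site, chr19:6497858-6498202, was called in the 3 controls and in no KO list. Fold enrichment was 6.22, 10.2 and 11.9 and pileup 8, 25 and 23 in control 1, 2 and 3. KO 2 and control 3 were called at a neighbouring site that ends 315 bp below it, chr19:6497286-6497542, with fold enrichment of 6.11 in KO 2 and 5.06 in control 3. That neighbour lies 30 bp from the long non-coding RNA gene Gm52381, and strand was not used in placing peaks. As a difference in calling, 0 of 3 KO against 3 of 3 control lists gave an exact two-sided permutation p of 0.1 (n = 3 each), the smallest possible with 3 libraries against 3, and 1 after Benjamini-Hochberg adjustment over 13572 regions. With peaks under 5 in −log10 q left out, the control 1 peak (4.86) was lost and the pattern ended.

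Near the lower end of Nrxn2, chr19:6418864-6419041 was called in KO 1 and KO 3 alone. Its fold enrichment was 12.0 in KO 1 and 7.53 in KO 3, with a median summit 169 bp from the span's end. The long non-coding RNA gene Gm14965 ends 101 bp below this site. The exact permutation p for its calls was 0.4 (n = 3 each). The other 4 Nrxn2 sites were each called in a single list, KO 2, KO 3 (2 sites) and control 2.

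**Figure D3:**
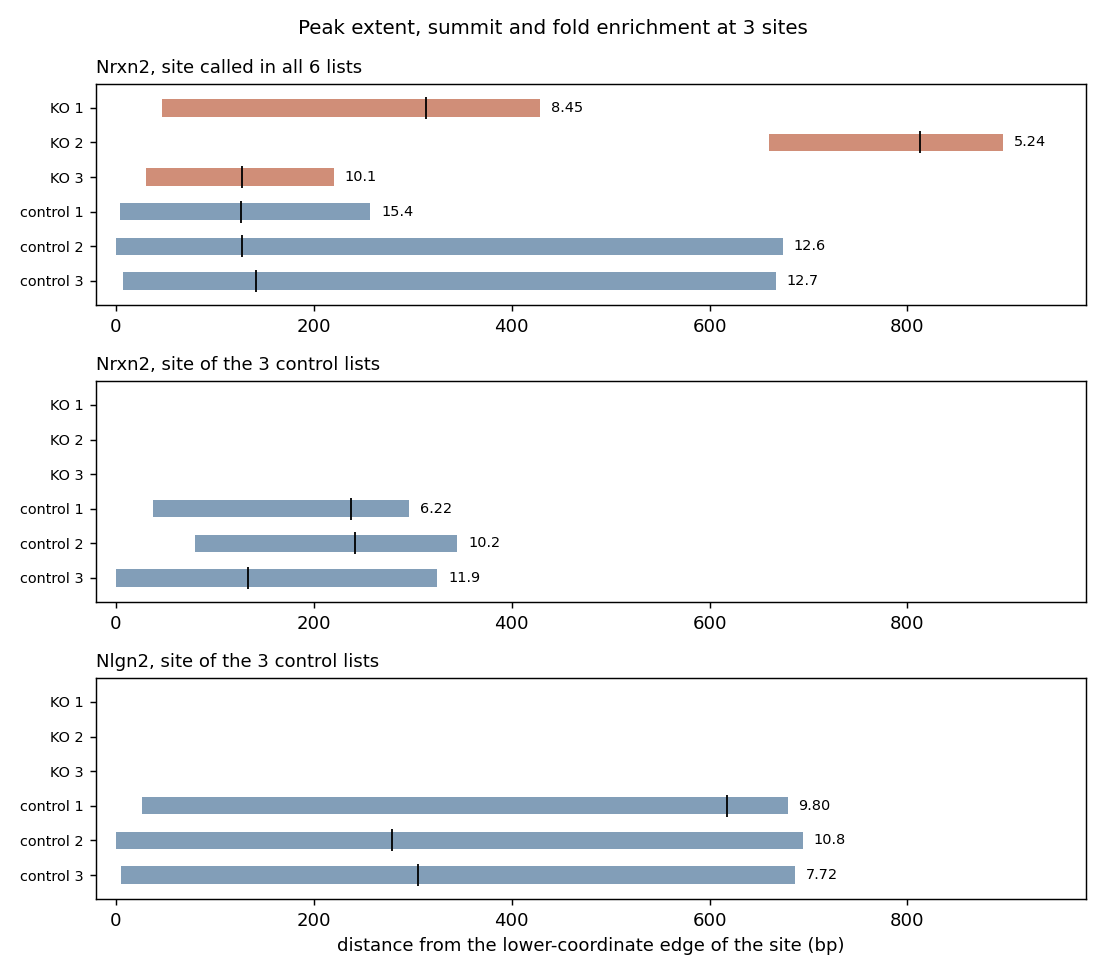
Extent (bar), summit (tick) and fold enrichment (number) of each library's peak at the Nrxn2 site called in all 6 lists, the Nrxn2 site of the 3 control lists and the Nlgn2 site of the 3 control lists, as distance in bp from the lower edge of the site. At the top site the KO 2 bar begins where the 2 long control bars end, and in the other 2 panels the KO rows are empty.

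Nrxn3, on chromosome 12 from 88722701 to 90334935, carried 28 peaks at 24 sites, and 22 of those sites were called in a single list. Its peaks numbered 4, 18 and 1 in KO 1, 2 and 3, and 2, 2 and 1 in control 1, 2 and 3. The difference of 6 peaks per library had an exact two-sided permutation p of 0.4 (n = 3 each) and an adjusted p of 1 over 6658 genes, and was 0.833 without KO 2. The strongest Nrxn3 peak was in KO 2 at chr12:89023166-89023408, with a fold enrichment of 15.7 and a pileup of 75. The same place was called in KO 3 at 8.29 and in no control, with an exact permutation p of 0.4 for its calls (n = 3 each).

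The most widely called Nrxn3 site, chr12:88794551-88795190, lay 307 to 529 bp after an annotated start of the gene. Its fold enrichment was 5.09 in KO 1 and 2.94 in KO 2, and 7.64 in control 2 and 10.1 in control 3, with no call in KO 3 or control 1. The 2 control values lay above the 2 KO values, and the pileup was 25 and 32 in KO against 41 and 42 in control. This order was not tested, and no share of regions called in 4 lists that have it is given. By the highest peak of the gene the groups overlapped, at 8.29 to 15.7 in KO and 4.61 to 10.1 in control. In its own list the site stood at the 15.9th and 1.38th percentile of fold enrichment in KO 1 and KO 2, and at the 57.3th and 80.5th in control 2 and control 3. At the other 2 annotated starts of Nrxn3 the nearest summits were 7775 bp away or farther.

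Nlgn1, on chromosome 3 from 25421808 to 26332866, carried 23 peaks at 16 sites. Its peaks numbered 2, 14 and 2 in KO 1, 2 and 3, and 1, 2 and 2 in control 1, 2 and 3, a difference of 4.33 with an exact permutation p of 0.6 (n = 3 each) and an adjusted p of 1. Without KO 2 the difference was 0.333. The groups overlapped, since KO 1 and KO 3 matched control 2 and control 3.

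One interior Nlgn1 site, chr3:25572205-25572597, was called in every list except control 1, the shallowest. Fold enrichment was 14.8, 13.1 and 10.7 in KO 1, 2 and 3, and 7.34 and 5.37 in control 2 and control 3. All 3 KO values lay above both control values, and no share of regions called in 5 lists with this order is given. Every KO lay above every control by highest peak in 6.11% of the 540 genes called in all 6 lists, Nlgn1 among them. The highest Nlgn1 peak was at this site in KO 1 and KO 3 alone, so that share does not describe the site. Within its list the site stood at the 94.8th, 91.6th and 81.0th percentile in KO, and at the 53.6th and 19.8th in control 2 and control 3. The 5 summits lay within 21 bp of each other, 150.6 kb from the lower end of the span and far from either annotated start. Fold enrichment was thus higher in the KO lists at this site, and lower in the KO lists at the upper-end site of Nrxn2, and neither difference was tested.

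The other shared Nlgn1 sites were called in 2 lists each. At chr3:25562059-25562685 fold enrichment was 11.7 in KO 2 and 7.40 in control 2, and at chr3:25883410-25883669 it was 6.73 in KO 1 and 11.5 in KO 2. The site chr3:26331433-26331624, 382 to 394 bp after an annotated start, had 7.54 in KO 3 and 5.93 in control 3, each with a pileup of 29. The long non-coding RNA gene A830092H15Rik lies 328 bp above that site.

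Nlgn2, on chromosome 11 from 69823123 to 69837784, is a short gene of 14.7 kb, and its peaks were almost all in controls. They numbered 0, 1 and 0 in KO 1, 2 and 3, and 1, 2 and 2 in control 1, 2 and 3. The difference of −1.33 had an exact two-sided permutation p of 0.2 (n = 3 each) and an adjusted p of 1 over all genes. The groups met at 1 peak, in KO 2 and control 1. Per 1000000 tags they did not overlap, with 0, 0.399 and 0 in KO and 2.18, 1.82 and 2.31 in control, and on that scale the groups of 676 of the 6658 genes did not overlap.

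The site chr11:69837057-69837750, at the start of Nlgn2, was called in all 3 controls and in no KO list. Fold enrichment was 9.80, 10.8 and 7.72 and pileup 12, 32 and 25 in control 1, 2 and 3. The peaks were 653, 694 and 681 bp long, the shorter of any pair lay wholly inside the longer, and their summits lay 109, 448 and 422 bp after the annotated start. The exact permutation p for calling was 0.1 (n = 3 each), again the smallest possible, and 1 after adjustment over 13572 regions. Here the lowest −log10 q of the 3 was 11.7, and the pattern was kept under each stricter limit on q or fold enrichment and with lists of equal length. The only KO peak of the gene, in KO 2, lay at the opposite end, at chr11:69823371-69823631 with a fold enrichment of 3.52. The gene Tmem256 lies 774 bp above the control site.

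Nlgn3, on chromosome X from 101299179 to 101321350, had 3 peaks, 1, 0 and 0 in KO 1, 2 and 3 and 0, 0 and 2 in control 1, 2 and 3. One site, chrX:101301792-101301970, was shared by KO 1, at a fold enrichment of 8.03, and control 3, at 6.16. The other peak was in control 3 at the lower end of the span, with a fold enrichment of 7.05. The exact permutation p for the number of peaks was 1 (n = 3 each).

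Of the 6658 genes with a peak, 161 (2.42%) had more peaks in every KO than in every control library and 63 (0.946%) had fewer, and none of the 5 genes was among either. By the exact permutation test no gene of the 6658 had an adjusted p under 0.05, and none could, since 0 passed before adjustment at a smallest possible p of 0.1.

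**Figure D4:**
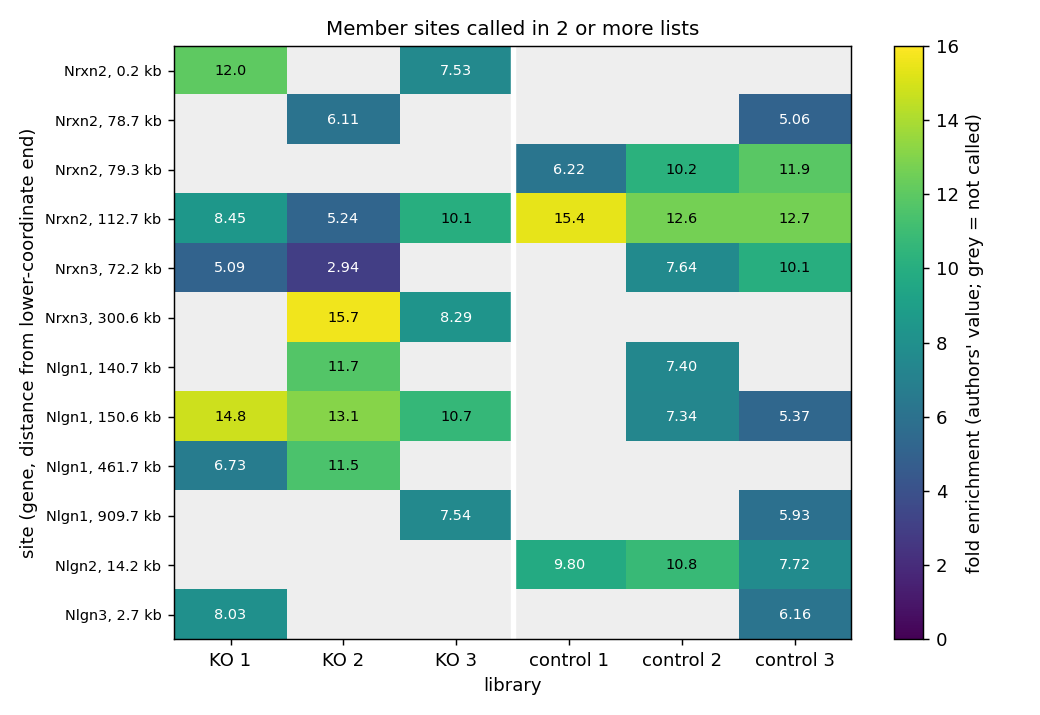
Fold enrichment per library (columns, KO left of control) at the 12 sites called in 2 or more lists (rows, named by gene and distance in kb from the lower end of the span), with grey for not called. At the Nrxn2 site at 112.7 kb and the Nrxn3 site at 72.2 kb the control values are above the KO values, and at the Nlgn1 site at 150.6 kb the KO values are above the control values.

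Density of peaks was higher in the short members than in the long ones. It divides by span, so that among genes with a peak a short span by itself gives a high value. Nlgn2 had 40.9 peaks per 100 kb of span over the 6 lists, Nrxn2 14.9 and Nlgn3 13.5, while Nlgn1 had 2.52 and Nrxn3 1.74. The median was 5.91 over all 6658 genes with a peak, of median span 35.0 kb, and 0.837 over the 206 of them longer than 500 kb. No median over short genes alone is given. Without KO 2 the density was 0.988 in Nlgn1 and 0.620 in Nrxn3, beside a median of 0.454 over the 194 genes longer than 500 kb that still had a peak, and 34.1 in Nlgn2, 12.2 in Nrxn2 and 13.5 in Nlgn3. Peaks at the 29 sites of KO 2 alone had a median fold enrichment of 6.91, and those of KO 2 at shared sites, 7 peaks, had 11.5. The 29 stood at a median percentile of 45.8 in their list.

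Across the 6 lists, likeness was taken as the root mean square difference in the percentile of a gene's highest peak by fold enrichment, over 540 genes with a peak in every list. Nearest to Nrxn2 were the kinase gene Sik3 with the overlapping Gm46110, at 4.35 percentile points, and Lrrc47, at 5.40. Nrxn3 had Grik2, a kainate receptor subunit, at 8.39, then Shb at 10.8 and Fam219a at 10.9. Nearest to Nlgn1 were Fbxl17 at 11.4, Dtna, which encodes a dystrobrevin of the dystrophin complex, at 13.4 and Ccdc191 at 13.7.

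Partners of the neurexins and neuroligins carried peaks in both groups. Of 75 partner genes, in 4 lists, 46 had a peak in some list, where 6658 of all 49997 genes, protein-coding or not, did. Of those 46, 14 had one in all 6, where 8.11% of all genes with a peak did. Span was not matched: it ran from 20.9 kb in Lrrc4b to 1973 kb in Dlg2 among the 14. Its median was 35.0 kb over all genes with a peak. That 14 became 8 with peaks under 5 in −log10 q left out, and also 8 with those under 4 in fold enrichment left out. The share of all genes at those limits is not given, so that 8 cannot be set beside 8.11%. By library, 30, 39 and 24 of the 75 partners had a peak in KO 1, 2 and 3, and 27, 31 and 27 in control 1, 2 and 3. No partner had a peak in all 3 lists of one genotype and none of the other, which 1.74% of all genes with a peak did for KO and 0.856% for control. The median KO minus control difference was 0.667 peaks per library over the 46 and 0.333 over all genes with a peak. Both medians include KO 2, the longest list, and neither is given without it.

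Of the neurexin ligands, 13 of 23 had a peak and 5 had one in all 6 lists. The calsyntenin gene Clstn3, whose product binds neurexins from the postsynaptic side, had 3, 5 and 4 peaks in KO 1, 2 and 3, and 2, 2 and 1 in control 1, 2 and 3. It was the only one of the 46 partners whose groups did not overlap, where 2.42% of all genes had more peaks in every KO library and 0.946% fewer, with an exact permutation p of 0.1 (n = 3 each) and an adjusted p of 1. Per 1000000 tags Clstn3 had 2.47 ± 0.501 peaks in KO and 2.44 ± 1.69 in control (SD, n = 3 each), which overlapped. Its highest fold enrichment was 9.73 to 18.9 in KO and 5.54 to 14.1 in control. The other 4 were Clstn1, at 3.81 to 11.3 across the 6 lists, the leucine-rich repeat ligand Lrrtm4, at 4.56 to 26.4, and the latrophilins Adgrl3, at 3.84 to 11.9, and Adgrl1, at 3.22 to 5.73.

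Among 9 intracellular neurexin partners and splicing regulators, 5 had a peak. Apba2, a Mint adaptor that binds the neurexin tail, had peaks in all 6 lists with highest fold enrichments of 3.73 to 11.1. So did Khdrbs1, the RNA-binding protein Sam68 that regulates neurexin splicing, at 6.54 to 13.2.

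Of 13 neuroligin partners, 10 had a peak and 4 had one in all 6 lists. Adam10, a membrane protease that sheds neuroligins, had 1 peak in each library, with fold enrichments of 16.1 to 37.0. Magi2, a postsynaptic scaffold, had 11.6 to 20.9, and Dlg2, encoding the PSD-93 scaffold, 5.42 to 12.9.

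Of the 30 other trans-synaptic adhesion genes, 18 had a peak and 3 had one in all 6 lists. These were the receptor phosphatase Ptprf, at 3.77 to 11.9, its postsynaptic leucine-rich repeat partner Lrrc4b, at 8.12 to 17.4, and the netrin-G ligand Lrrc4c, at 3.84 to 10.2.

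The fold enrichment of the highest peak differed in both directions among the 14 partners called in all 6 lists. It was lower in every KO than in every control library for 4 of them, as for 10.4% of the 540 genes called in all 6 lists. Magi2 had 11.6 to 16.2 in KO and 16.5 to 20.9 in control. For Lrrc4b the values were 8.12 to 12.7 in KO and 14.7 to 17.4 in control. Khdrbs1 had 6.54 to 7.30 in KO and 9.83 to 13.2 in control, and Adgrl1 was the fourth, with 3.22 to 4.03 in KO and 5.03 to 5.73 in control. It was higher in every KO library for 2 of the 14, as for 6.11% of the 540 genes. Clstn1 had 7.94 to 11.3 in KO and 3.81 to 5.59 in control, and Apba2 had 10.5 to 11.1 in KO and 3.73 to 6.95 in control. These are the authors' values of single peaks, which need not be the same site in each library, and they were not tested.

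**Figure D5:**
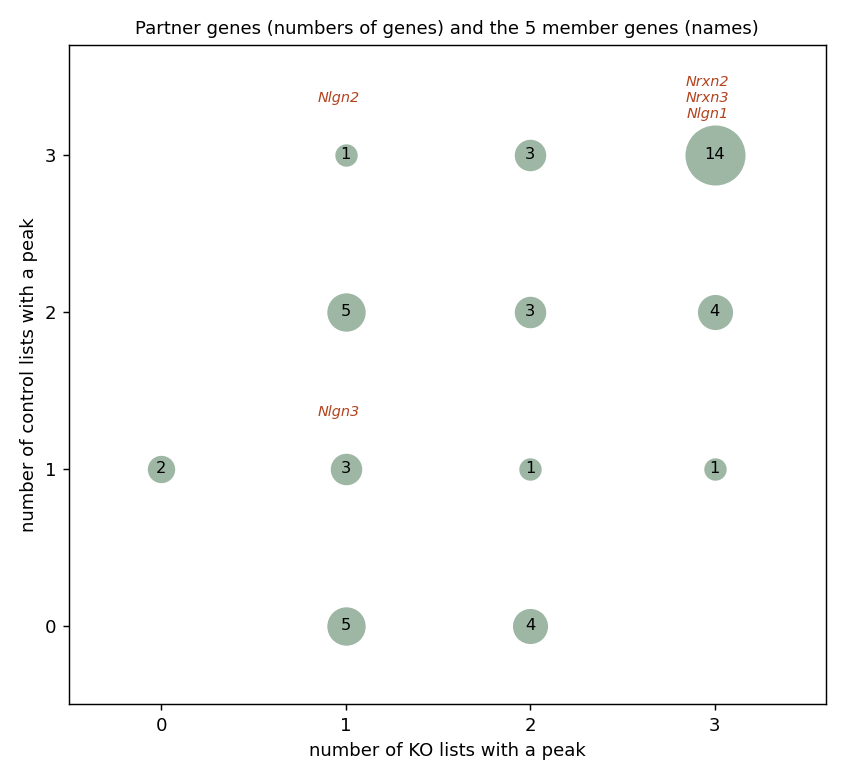
Number of KO lists (x axis) and control lists (y axis) with a peak, for the 46 partner genes with a peak (circles, sized and numbered by genes) and the 5 genes described here (names). Nrxn2, Nrxn3 and Nlgn1 stand with 14 partners at 3 and 3, and Nlgn2 stands at 1 KO and 3 control lists with 1 partner.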

How the data were processed

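m1A pull-downs and inputs of caudate putamen were sequenced in 3 libraries per genotype. Tools listed in the submitters' processing notes are HISAT2 2.1.0, cutadapt 2.8 and MACS2 2.2.6, with the build GRCm38. Per the file headers, each pull-down was called with its matching input as background, with a q-value limit of 0.01 and an extension of 150 bp, and 1 library (control 1) kept every duplicate. Tags were 52 to 110 bp long and control 1 had the longest. For each peak the deposited lists give pileup, a signal of tag coverage, −log10 of p-value and q-value, and fold enrichment, a ratio.

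Summits were placed in RefSeq GRCm38.p6 spans (49997 genes, without exons). Summits in over 3 genes (2 peaks) were left out. Counts of peaks per gene were compared by an exact two-sided permutation test over 20 assignments, adjusted by Benjamini-Hochberg over 6658 genes and checked on simulated counts (Python 3.11.15, numpy 2.4.6, pandas 2.3.3).

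The members and lists were chosen with earlier results of these data known. Named were the 5 genes and partners with a peak in all 6 lists or in all 3 of 1 genotype alone (at most 20), with the 3 most alike genes of each member called in all 6. The same-numbered libraries deviated from their group means with correlations over genes of −0.0457, −0.0102 and 0.0170, so numbers were not treated as pairs. Alternatives covered q, fold, overlap, placement, list length, depth, pairing and left-out libraries. One partner gene that the rule names is not reported here.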

Additional observations from a re-analysis of the deposited data

How the results depend on the processing

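The excess of peaks in the 5 genes in KO libraries depended on KO 2. The mean difference was 9 peaks per library, and −0.333 to 14.2 when each library was left out in turn, with −0.333 without KO 2. It was −1.50 without control 1 and KO 2, and −1.99 per 1000000 tags, but 2.33 with lists of equal length. For the share of the list the difference was 0.0674 percentage points, −0.0275 to 0.117 with each library left out (lowest without KO 2) and −0.0636 without control 1 and KO 2. For single genes, the Nrxn2 difference of 0.333 turned to −0.667 with lists of equal length, to −1.58 per 1000000 tags and to −0.167 without KO 3 (highest 0.833), and the Nlgn3 difference of −0.333 ran from −0.667 to 0.333, the latter without control 3. The directions for Nrxn3, Nlgn1 and Nlgn2 turned in none of the 13 alternatives, and Nlgn1 was level in 1 of them.

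The number of sites was 54, and 35 when all lists were cut to 3004 peaks, 25 to 52 with each library left out (25 without KO 2) and 22 without control 1 and KO 2. Sites called in every list numbered 1, and 0 at 50% overlap or with lists of equal length, 1 to 2 with each library left out (2 without control 1) and 2 without control 1 and KO 2. Sites of every control and no KO list numbered 2, and 1 at a −log10 q of at least 5, with 2 whichever library was left out. Sites of every KO and no control list numbered 0, and 0 to 1 with each library left out (1 when KO 1, KO 2 or KO 3 was the one left out, 0 when a control was), and 1 without control 1 and KO 2. The partner genes called in every list were 14, and 8 at a −log10 q of at least 5, 8 with peaks under 4 in fold enrichment left out, and 14 to 17 with each library left out. Genes whose groups did not overlap numbered 224 in all, and 676 per 1000000 tags, 822 without control 1 and KO 2 and 335 to 511 with each library left out. Settings with libraries left out have fewer values to separate, so their counts cannot be set directly against the 224. The cause of the shifts across settings was not tested.

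With the replicate number as a block (replicate block, 8 sign flips, smallest p 0.25) the difference in peaks of the 5 genes was 9 and 303 genes moved one way in all 3 pairs. Nothing passed the threshold with or without the block. The densities without KO 2 were chosen after seeing the data. Depth differed between the groups, with each KO pull-down deeper than each control. Neither KO nor control lists can show that an uncalled site lacked m1A.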

Other observations

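Families of synaptic adhesion genes beside the neurexins and neuroligins differed in whether they had any peak. Of all 49997 genes 6658 had one, so a gene without a peak was the usual case. The 6 Slitrk genes, postsynaptic leucine-rich repeat proteins with spans of 4.25 to 12.5 kb, and the 3 Flrt genes, ligands of latrophilins, had 0 peaks in the 6 lists. The 3 calsyntenin genes had 38 peaks, 12 of them in KO 2, and KO 2 held 6947 of all 23413 peaks. Of the 4 teneurin genes, large adhesion proteins that bind latrophilins, 3 had peaks, 28 in all, and 18 of these were in KO 2. The teneurin spans are 740 to 1297 kb, and 13.4% of all KO 2 peaks lay in genes over 500 kb. Tenm2 was called in KO 2 alone, with 9 peaks. These families were singled out after their values were seen, and a missing peak does not show that a transcript was absent.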
